A study of Homo sapiens with 6 samples.

Results

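The genes described are MYC and 37 factors that build ribosomes in the nucleolus. They were listed by name and measured where the array had a probe set annotated to that gene alone, the brightest such probe set standing for the gene. This held for 32 of the 38, out of 19775 genes so represented, and all 32 also passed the filter on dim genes that left 14387 genes for testing. NOP56, DKC1, GNL3, BOP1, PPAN and EBNA1BP2 had no probe set of their own and were not analysed here. The genes were taken up because earlier results of these data had shown knockout differences of unlike sign in the 2 lines, so the signs, the counts of opposite signs and the contrast between lines describe the set and support nothing about it.

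The study removed KDM6A, a demethylase that takes methyl groups off histone H3 lysine 27, from the human pancreatic ductal adenocarcinoma lines Panc1 and BxPC3. Knockout cells carried lentiCRISPR v2 with Cas9 and a guide against KDM6A, were selected in puromycin and were cloned by limiting dilution. The groups are Panc1 control (1 array), Panc1 KDM6A knockout (1 array), BxPC3 control (2 arrays) and BxPC3 KDM6A knockout (2 arrays). The labels call the controls KDM6A wild-type and do not say whether they carried a vector, how many clones a knockout array stands for, or whether the paired BxPC3 arrays came from separate cultures, so that p-values measure the spread between arrays, which may be technical. Vector, selection and cloning therefore cannot be told apart from the loss of KDM6A in the knockout differences given here. Panc1 cells grew in DMEM and BxPC3 cells in RPMI 1640, so line and medium cannot be told apart in the contrast between lines. Total RNA was labelled with biotin from the 3' end of transcripts, and the deposited values are log2 RMA levels per probe set. Differences are knockout minus control on that scale, where 1 unit is 2-fold.

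KDM6A itself read 6.73 on the Panc1 control and 4.06 on the Panc1 knockout array. In BxPC3 it read 8.02 and 7.85 on the control and 7.29 and 7.01 on the knockout arrays (-0.79 ± 0.12, limma adjusted p = 0.0329, and 0.0611 with no filter on dim genes). The BxPC3 groups did not overlap, but that call was lost without either control array and without knockout array 2 (adjusted p from 0.0843 to 0.215), and transcript remained at 7.01 or more on the knockout arrays. Array medians lay between 4.75 and 5.06, and the BxPC3 replicate arrays correlated at 0.998 (control) and 0.996 (knockout). All 6 ductal epithelial markers examined exceeded the array median on all 6 arrays, with KRT8, KRT18 and KRT19 between 11.70 and 13.53. KRT7 read 6.42 and 5.98 on the Panc1 control and knockout arrays, whose tested genes had medians of 7.21 and 7.01. On the BxPC3 arrays KRT7 read 12.6 to 12.8. In Panc1 CDH1 read 7.87 and 5.78 and EPCAM 8.47 and 7.54. CDH1 and EPCAM differed by -2.08 and -0.93 on the Panc1 arrays. The mean over 4 immune markers stayed between 3.74 and 4.24, over 6 fibroblast markers between 4.49 and 5.14 and over 6 endothelial markers between 4.44 and 5.09. Of these, 1 immune, 2 fibroblast and 2 endothelial markers exceeded the array median on all 6 arrays, and 2, 3 and 1 did so on none. CDH5 and CD14 fell in BxPC3 (-2.19 ± 0.17 and -0.43 ± 0.07, limma adjusted p = 0.00579 and 0.0422). RMA has no true zero, and the part of these markers in the results was not tested.

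Ribosomes begin in the nucleolus, where RNA polymerase I transcribes the long ribosomal RNA precursor. Small nucleolar ribonucleoproteins methylate and pseudouridylate that precursor, and assembly factors fold and cut it while ribosomal proteins join the small and the large subunit. MYC is a transcription factor known to drive this programme in growing cells and is often raised in pancreatic cancer. Because the arrays measure RNA from whole cultures, fewer cells making a transcript and less transcript per cell cannot be told apart.

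The ribosome-building genes had differences of opposite sign in the knockouts of the 2 lines. On the Panc1 arrays 31 of the 32 genes were higher in the knockout, with a median difference of 0.31 (1.24-fold), where 48.7% of all tested genes lay above 0 and their median was 0. In BxPC3 27 of the 32 genes had a negative difference, with a median of -0.15, where 49.3% of all genes lay below 0 and their median was 0.00. A positive Panc1 difference together with a negative BxPC3 difference was seen for 26 of the 32, or 81.2%, and for 23.6% of all genes, a pattern for which the set was chosen. The shifts were small. None of the 32 differed 2-fold in Panc1, where 3.86% of all genes did, and the largest fold was 1.72 in Panc1 (NIP7) and 1.33 in BxPC3 (UTP15, a value that rests on knockout array 2).

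Panc1 has 1 array per group, so its differences have no replicate check. For scale, BxPC3 replicate arrays differed by a median of 0.04 (controls) and 0.07 (knockouts) over the same genes and by 0.29 at most, and the Panc1 difference was larger in size than that most extreme value for 17 of the 32, of which 16 were higher and 1, IMP3, was lower. RMA brings whole array distributions onto each other, so a level is relative to the other genes of its array. With each array centred on the median of its tested genes, the median of all genes in Panc1 moved by 0.20, and that of the ribosome-building genes went from 0.31 to 0.50. The number above 0 in Panc1 was 28 to 31 under the 6 alternatives tried for that line, among which a change of filter cannot alter a difference. IMP3, with 1 probe set, could move only under the alternatives of scaling and stayed below 0 in each. Under single alternatives NHP2, WDR12, POLR1B and TSR1 were at or below 0.

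None of the 32 genes passed the limma test in BxPC3 at an adjusted p under 0.05, a threshold that 4.72% of all genes passed, 3.58% with a lower and 1.14% with a higher level. The smallest adjusted p was 0.0925 (NOLC1). At an unadjusted p under 0.05 there were 10, all lower, against 19.9% of all genes in either direction and 12.0% lower. Both knockout arrays lay below both control arrays for 24 of the 32 (75%), against 26.8% of all genes, and above them for 4, FBL, UTP20, HEATR1 and IMP4, against 23.9%. With a variance prior that follows expression, limma called 6 of the 32 lower, namely MYC, NHP2, NOLC1, DDX21, UTP15 and NOP16, at adjusted p between 0.00458 and 0.0493. Without knockout array 1 it called UTP15 alone (adjusted p = 0.0484).

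The difference between the lines was tested in limma as the Panc1 knockout effect minus the BxPC3 effect. The Panc1 arrays have no spread of their own, so the test borrows that of BxPC3. The effect was more positive in Panc1 for 9 of the 32, namely NIP7, GAR1, RRS1, NOP16, RRP1B, TSR1, WDR43, LYAR and NOP14, and more negative for none. Of all genes, 14.0% passed this test and 4.92% passed it with a positive sign, but the contrast uses the values whose signs chose the set, so nothing is read from these shares or from the direction. The median of the contrast was 0.43 over the 32 genes and -0.00 over all genes. At an unadjusted p under 0.05 there were 21 of the 32, all positive, against 33.6% of all genes in either direction and 14.4% with a positive sign. All 9 calls were lost without BxPC3 control array 1 (adjusted p from 0.0929 to 0.193) and without control array 2 (0.107 to 0.212). All 9 were kept without either knockout array, where 13 and 15 of the 32 passed, and 3 of the 9 were kept with no filter on dim genes.

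**Figure D1:**
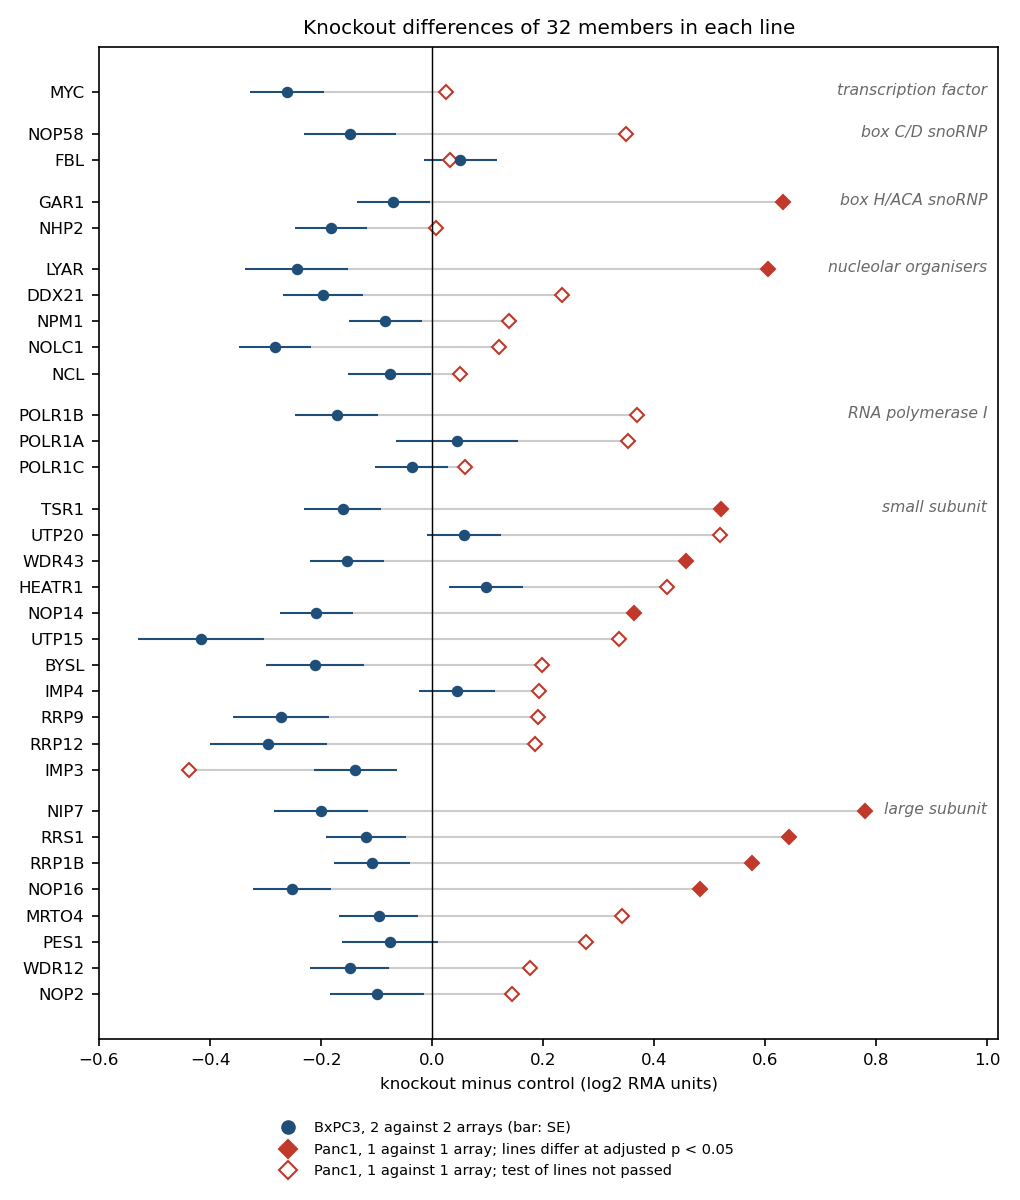
Knockout minus control difference (log2 RMA units) of each of the 32 genes, grouped by role. Blue circles with standard errors are BxPC3 and red diamonds are Panc1, filled for the 9 genes whose effect differed between the lines at a limma adjusted p under 0.05. The Panc1 values lie to the right of 0 for all but IMP3, and the BxPC3 values to the left for 27 of 32.

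Promoters are shown for the 4 genes with the smallest p between lines among those with a RefSeq entry. They are shown because MYC is known to bind the E-box CACGTG and the question is which letters these promoters hold. RefSeq promoters (GRCh38.p14) were matched for 26 of the 32 genes, and the 250 bases before the start of the gene were searched on both strands for CACGTG, for its variant CACGCG, read as CGCGTG on the other strand, for CCGGAA, read as TTCCGG on the other strand, which holds the GGAA core known for ETS-family factors, and for TATAAA on the gene's strand. CACGTG was found in 2 of the 26 (7.69%), UTP20 and IMP4, against 8.6% of 11471 promoters of tested genes. CACGCG was found in 6 (23.1%) against 14.4%, and TATAAA in 0 against 4.11%. CCGGAA was found in 13 (50%), among them 5 of the 7 matched genes that passed the test between lines, against 23.2% of tested genes. It was found in 51.4% of 35 promoters of further small and 59.0% of 39 of further large subunit assembly factors, and in 50% of 20 small and 46.2% of 26 large subunit ribosomal protein promoters. The 13 genes with CCGGAA had medians of 0.23 in Panc1, -0.17 in BxPC3 and 0.46 in the contrast, with 5 past the test between lines. The 13 without it had medians of 0.34, -0.10 and 0.33, with 2 past the test. The set was chosen by the signs of these values, and the split was not tested. No link of CCGGAA with the knockout differences is therefore read from it, or from the 5 of the 7. A match of letters is a description and no site of binding, and a missing match says only that the letters are not in this window. The sequences run 5′ to 3′ on the gene's strand and end at the base before the start, with each CCGGAA or TTCCGG in capitals. NIP7 is on the plus strand at chr16:69339522-69339771, GAR1 on the plus strand at chr4:109815260-109815509, NOP16 on the minus strand at chr5:176388599-176388848 and TSR1 on the minus strand at chr17:2336458-2336707.
NIP7: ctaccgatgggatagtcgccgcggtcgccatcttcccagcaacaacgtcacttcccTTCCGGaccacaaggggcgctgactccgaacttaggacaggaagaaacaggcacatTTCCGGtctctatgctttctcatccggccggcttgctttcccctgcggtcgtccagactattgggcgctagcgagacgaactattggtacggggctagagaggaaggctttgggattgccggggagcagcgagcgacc
GAR1: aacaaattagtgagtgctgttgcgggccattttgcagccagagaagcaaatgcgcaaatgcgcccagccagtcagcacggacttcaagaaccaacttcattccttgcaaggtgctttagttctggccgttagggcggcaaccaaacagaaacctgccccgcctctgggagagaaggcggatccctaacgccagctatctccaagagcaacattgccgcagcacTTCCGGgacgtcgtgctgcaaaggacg
NOP16: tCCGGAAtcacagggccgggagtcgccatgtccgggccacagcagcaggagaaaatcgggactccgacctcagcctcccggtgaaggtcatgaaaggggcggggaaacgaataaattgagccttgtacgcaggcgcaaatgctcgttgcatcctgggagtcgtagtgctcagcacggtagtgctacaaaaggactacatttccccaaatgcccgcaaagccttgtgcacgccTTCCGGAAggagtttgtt
TSR1: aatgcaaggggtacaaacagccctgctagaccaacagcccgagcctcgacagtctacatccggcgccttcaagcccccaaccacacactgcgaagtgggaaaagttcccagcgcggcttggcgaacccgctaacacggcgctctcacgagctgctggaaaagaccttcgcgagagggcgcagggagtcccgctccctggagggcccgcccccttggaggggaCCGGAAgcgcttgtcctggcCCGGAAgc
NIP7 holds 2 matches, GAR1 1, NOP16 3, of which 2 overlap on opposite strands 16 and 18 bases before the start, and TSR1 2. None of these 4 promoters holds the E-box, its CACGCG variant or the TATAAA word. WDR43, LYAR and NOP14 also passed the test between lines and had an entry but are not shown, and of these only LYAR holds CCGGAA.

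MYC, on chromosome 8, read 10.19 on the Panc1 control and 10.21 on the Panc1 knockout array. In BxPC3 it read 10.76 and 10.78 on the control and 10.54 and 10.48 on the knockout arrays. The BxPC3 groups did not overlap and the Panc1 arrays were nearly equal. The BxPC3 difference was -0.26 ± 0.07 (limma adjusted p = 0.116). Among the alternatives it passed only with the variance prior following expression (limma adjusted p = 0.0130). The Panc1 difference was 0.03, and the contrast between lines was 0.29 ± 0.12 (limma adjusted p = 0.156). That contrast passed only with centred arrays (limma adjusted p = 0.0408) and with the variance prior following expression (0.0407), and in no other alternative. MYC was read by 1 probe set.

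The box C/D ribonucleoproteins, which methylate ribosomal RNA, were represented by FBL, the methyltransferase fibrillarin, and NOP58, a core scaffold protein. FBL read 13.50 and 13.53 on the Panc1 control and knockout arrays, and 11.59, 11.64, 11.67 and 11.66 on the 2 BxPC3 control and 2 knockout arrays. All 4 BxPC3 arrays were close, and FBL differed by 0.03 in Panc1 and 0.05 ± 0.07 in BxPC3 (limma adjusted p = 0.734). NOP58 read 10.99 and 11.34 in Panc1, and 10.94, 10.98, 10.89 and 10.73 in BxPC3. It was higher on the Panc1 knockout array (0.35) and lower on both BxPC3 knockout arrays (-0.15 ± 0.08), and the contrast between lines was 0.50 ± 0.14 (adjusted p = 0.0797).

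The box H/ACA particles, which turn uridine into pseudouridine and also bind the telomerase RNA, were represented by GAR1 and NHP2, both of them core proteins. GAR1 read 9.47 and 10.10 in Panc1, and 9.40, 9.45, 9.35 and 9.36 in BxPC3. It was 1.55-fold higher on the Panc1 knockout array and differed by -0.07 ± 0.07 in BxPC3, and the contrast passed the test (0.70 ± 0.11, limma adjusted p = 0.0240). NHP2 read 11.68 and 11.69 in Panc1, and 10.92, 10.95, 10.76 and 10.75 in BxPC3. So its 2 Panc1 arrays were alike, and both BxPC3 knockout arrays lay below both controls (-0.18 ± 0.06, adjusted p = 0.217). The difference between these partners was not tested.

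Among the nucleolar proteins with broader roles, LYAR, a nucleolar zinc-finger protein linked to growth, read 8.92 and 9.52 in Panc1. Its BxPC3 levels were 8.61 and 8.78 on the control and 8.51 and 8.38 on the knockout arrays. The gene was 1.52-fold higher on the Panc1 knockout array and differed by -0.24 ± 0.09 in BxPC3, a contrast of 0.85 ± 0.16 (limma adjusted p = 0.0326). A second LYAR probe set gave 0.69 in Panc1 and -0.18 in BxPC3. NOLC1, a chaperone that carries small nucleolar particles, read 11.28 and 11.40 in Panc1, and 11.16, 11.13, 10.87 and 10.85 in BxPC3. It had the smallest p of the 32 genes in BxPC3 (-0.28 ± 0.07, adjusted p = 0.0925), and its 3 probe sets gave -0.26, -0.28 and -0.28 there and 0.11, 0.12 and 0.12 in Panc1. DDX21, an RNA helicase, differed by 0.23 in Panc1 and by -0.20 ± 0.07 in BxPC3. NPM1 and NCL, the abundant nucleolar proteins nucleophosmin and nucleolin, differed by 0.14 and 0.05 in Panc1 and by -0.08 and -0.08 in BxPC3.

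RNA polymerase I was represented by its largest subunit POLR1A, its second largest subunit POLR1B, and POLR1C, which it shares with RNA polymerase III. POLR1B read 8.66 and 9.02 in Panc1, and 8.97, 9.00, 8.88 and 8.75 in BxPC3. It was higher on the Panc1 knockout array and lower on both BxPC3 knockout arrays, and the contrast of 0.54 ± 0.13 did not pass the test (limma adjusted p = 0.0554). POLR1A read 7.11 and 7.46 in Panc1, and 6.39, 6.44, 6.31 and 6.59 in BxPC3. Its BxPC3 groups overlapped, and all 3 of its probe sets gave positive differences in both lines (0.25 to 0.46 in Panc1, 0.04 to 0.13 in BxPC3). POLR1C differed by 0.06 in Panc1 and -0.04 ± 0.07 in BxPC3.

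The 11 factors of the small subunit had medians of 0.34 in Panc1 and -0.16 in BxPC3, and 3 of them passed the test between lines, as 14.0% of all genes did. TSR1, a late factor that resembles a translational GTPase, read 8.64 and 9.16 in Panc1, and 9.54, 9.60, 9.44 and 9.38 in BxPC3. WDR43, a component of the early processome, read 8.10 and 8.56 in Panc1, and 8.47, 8.50, 8.36 and 8.30 in BxPC3. NOP14, another processome protein, read 7.80 and 8.16 in Panc1, and 8.72, 8.76, 8.51 and 8.56 in BxPC3. For each of these 3 genes the Panc1 knockout array was the higher one and both BxPC3 knockout arrays lay below both controls. The contrasts were 0.68 ± 0.12 for TSR1, 0.61 ± 0.12 for WDR43 and 0.57 ± 0.12 for NOP14 (limma adjusted p = 0.0284, 0.0325 and 0.0380). The TSR1 call rests on the probe set used. Its others gave 0.16, 0.60 and 0.00 in Panc1 and -0.04, -0.20 and -0.31 in BxPC3, and with probe sets ending in _x_at or _s_at passed over its adjusted p was 0.172.

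Within this group HEATR1 and UTP20, 2 very large proteins of the processome, had positive differences in both lines. HEATR1 gave 0.42 in Panc1 and 0.10 ± 0.07 in BxPC3, and UTP20 gave 0.52 and 0.06 ± 0.07. UTP15, which joins the early transcription-coupled part of the processome, read 7.88 and 7.83 on the BxPC3 control and 7.58 and 7.29 on the knockout arrays (-0.42 ± 0.11, limma adjusted p = 0.134). Without knockout array 2 its difference was -0.27. RRP9, RRP12 and BYSL, which bind the U3 particle, carry the subunit outward and join the maturing particle, differed by 0.19, 0.19 and 0.20 in Panc1 and by -0.27 ± 0.09, -0.30 ± 0.11 and -0.21 ± 0.09 in BxPC3. IMP3 and IMP4 both bind the U3 particle, yet IMP3 was the 1 gene of the 32 that was lower on the Panc1 knockout array, 8.15 against 7.72, while IMP4 read 9.38 and 9.57. In BxPC3 IMP3 differed by -0.14 ± 0.07 and IMP4 by 0.04 ± 0.07.

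The 8 factors of the large subunit had the largest median of the role groups in Panc1, 0.41, and a median of -0.11 in BxPC3. All 8 were above 0 in Panc1 and below 0 in BxPC3, and 4 passed the test between lines, as 14.0% of all genes did. NIP7, an RNA-binding assembly factor, read 8.54 and 9.31 in Panc1, and 9.97, 10.04, 9.89 and 9.73 in BxPC3. It had the largest Panc1 difference of the 32 genes (0.78) and the largest contrast (0.98 ± 0.15, limma adjusted p = 0.0198). A second NIP7 probe set gave 0.60 in Panc1 and -0.26 in BxPC3.

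RRS1, which helps bring the 5S ribonucleoprotein into the large subunit, read 9.73 and 10.37 in Panc1, and 10.60, 10.68, 10.49 and 10.55 in BxPC3. RRP1B, a nucleolar partner of protein phosphatase 1, read 9.65 and 10.22 in Panc1, and 9.97, 9.98, 9.90 and 9.83 in BxPC3. NOP16, a nucleolar protein and known MYC target, read 9.75 and 10.23 in Panc1, and 10.18, 10.27, 9.97 and 9.98 in BxPC3. These 3 genes were 1.56-fold, 1.49-fold and 1.40-fold higher on the Panc1 knockout array, and both of their BxPC3 knockout arrays lay below both controls. Their contrasts were 0.76 ± 0.12, 0.69 ± 0.12 and 0.74 ± 0.12 (limma adjusted p = 0.0244, 0.0267 and 0.0247). Averaging the probe sets of NOP16, 2 of which were below the array median on all 6 arrays, gave an adjusted p of 0.124. MRTO4, a homologue of the P0 stalk protein, PES1 and WDR12, partners in 1 complex, and NOP2, a ribosomal RNA methyltransferase, differed by 0.34, 0.28, 0.18 and 0.14 in Panc1 and by -0.10, -0.08, -0.15 and -0.10 in BxPC3.

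**Figure D2:**
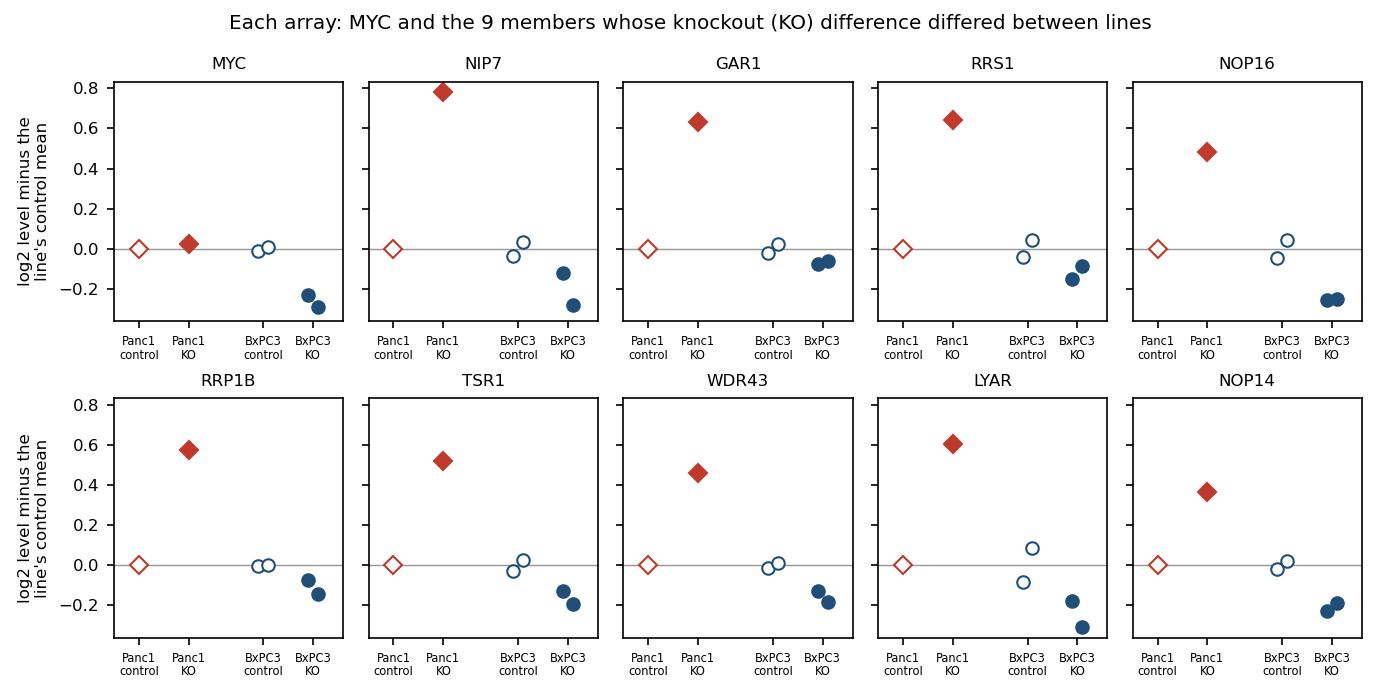
Level on each array minus the mean of the controls of its own line (log2 units), for MYC and the 9 genes whose effect differed between lines. Red diamonds are the Panc1 arrays (1 per group), blue circles the BxPC3 arrays (2 per group), open for control and filled for knockout. In all 10 panels both BxPC3 knockout arrays lie below both controls, and the Panc1 knockout array lies above its control by 0.03 for MYC and by 0.36 to 0.78 for the others.

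Related genes were described from further lists. Of 41 further small subunit assembly factors tested, 30 were above 0 in Panc1 (median 0.17) and 37 below 0 in BxPC3 (median -0.10). Of 42 further large subunit factors, 31 were above 0 in Panc1 (median 0.15) and 38 below 0 in BxPC3 (median -0.09). None of these 83 passed the limma test in BxPC3, where 4.72% of all genes did, and 11 (13.3%) had an unadjusted p under 0.05, against 19.9% of all genes. The test between lines was passed by 12 (14.5%), a share near the 14.0% of all genes that passed in either direction. All of the 12 but RSL24D1 passed with a positive sign, as 4.92% of all genes did. Both BxPC3 knockout arrays lay below both controls for 24 small (58.5%) and 25 large subunit factors (59.5%), against 26.8% of all genes. These lists, too, were chosen with earlier results of these data known. Among the 12 were DHX37, a helicase (0.65 in Panc1 and -0.18 ± 0.07 in BxPC3), PNO1, a late small subunit factor (0.50 and -0.32 ± 0.08), NOL11 of the processome (0.57 and -0.03 ± 0.07), RRP15 (0.50 and -0.22 ± 0.07) and WDR74 (0.31 and -0.26 ± 0.07). With averaged probe sets the RRP15 contrast went from 0.72 to 0.23 (limma adjusted p = 0.300), and with _x_at and _s_at probe sets passed over PNO1 went from 0.82 to 0.52 (0.0879) and WDR74 from 0.58 to 0.74 (0.140). RSL24D1, a large subunit factor, passed with the other sign (-0.61 and -0.07 ± 0.07). Its call was lost with centred arrays (limma adjusted p = 0.0685) and with _x_at and _s_at probe sets passed over (0.05001). With no filter RSL24D1, NOL11, RRP15 and WDR74 no longer passed (limma adjusted p from 0.0517 to 0.0859). RIOK2, a kinase of the late small subunit, gave 0.17 and -0.19 ± 0.07 and did not pass. Without either BxPC3 control array, none of the related genes named here passed the test between lines.

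Ribosomal protein genes lay close to 0 in both lines. The 21 small subunit proteins tested had medians of -0.02 in Panc1 and 0.03 in BxPC3, and the 31 large subunit proteins -0.01 and 0.03. Of these 52 genes, 0 passed the limma test in BxPC3 (4.72% of all genes), 0 did so at an unadjusted p under 0.05 (19.9%), and 0 passed the test between lines (14.0%), with 1 at an unadjusted p under 0.05 (33.6%). In BxPC3 42 of the 52 lay above 0, against 50.6% of all genes, and 24 (46.2%) had both knockout arrays above both controls, against 23.9%. RPS6, a target of S6 kinase, differed by -0.09 in Panc1 and 0.11 ± 0.07 in BxPC3, RPS19 by -0.15 and 0.00 ± 0.07, RPS16 by 0.13 and -0.01 ± 0.07, RPS27 by 0.09 and 0.09 ± 0.07, and RPL12 by 0.06 and 0.10 ± 0.07. RPLP2 of the stalk (0.65 and 0.14 ± 0.08) and RPL27A (0.45 and 0.06 ± 0.11) had the largest Panc1 differences. Their probe sets were dim for ribosomal protein genes. On the Panc1 control array, whose median was 4.75, RPLP2 read 5.34 and RPL27A 7.55. On that array RPS6, RPS19, RPS16, RPS27 and RPL12 read from 12.4 (RPS6) to 14.2 (RPS16). Whether the RPLP2 and RPL27A probe sets report the main transcripts of these genes was not tested. Ribosomal protein genes have many near-identical processed copies, so their probe sets are uncertain. Against 32 ribosome-building genes with medians of 0.31 and -0.15, the difference between these lists was not tested.

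RNA polymerase I factors had medians of 0.15 in Panc1 and 0.02 in BxPC3 over 17 genes. TCOF1, the nucleolar protein treacle (0.46 and -0.38 ± 0.09), and TOP1, the topoisomerase (0.33 and -0.30 ± 0.06), passed the limma test between lines. With _x_at and _s_at probe sets passed over, TCOF1 gave 0.01 in BxPC3 and no longer passed (adjusted p = 0.126). POLR1G gave 0.08 and -0.34 ± 0.07, and TAF1D, a promoter selectivity factor, gave -0.60 and 0.11 ± 0.10. RNA polymerase III genes had medians of 0.11 and -0.04 over 19 genes. POLR3G, a subunit of the form made in stem and tumour cells, was the 1 gene of that list that fell in BxPC3 (-0.39 ± 0.07, limma adjusted p = 0.0427, and 0.0622 to 0.459 without any 1 array), and it differed by 0.14 in Panc1, where its paralog POLR3GL differed by -0.64. With averaged probe sets POLR3G gave -0.13 in BxPC3 (limma adjusted p = 0.306) and its contrast went from 0.54 to 0.23 (0.201). Its BxPC3 call was also lost with no filter (0.0879), with _x_at and _s_at probe sets passed over (0.0509) and with the replicate block (0.127). POLR3K gave 0.67 and -0.02 ± 0.07, and POLR3C 0.05 and -0.31 ± 0.09. Exosome and decay genes had medians of 0.05 and -0.07 over 14 genes, with EXOSC2 at 0.32 and -0.19 ± 0.06, EXOSC3 at 0.58 and 0.08 ± 0.07, EXOSC4 at 0.54 and -0.19 ± 0.09, and EXOSC6 at -0.25 and -0.21 ± 0.09. The mitochondrial ribosome list had medians of 0.11 and -0.05 over 27 genes, with MRPL1 at 0.55 and -0.15 ± 0.10, MRPS30 at 0.42 and -0.26 ± 0.07, MRPS27 at -0.03 and -0.15 ± 0.07, and MRPS10 at -0.75 and -0.10 ± 0.07. EXOSC2, EXOSC4, MRPS30 and MRPS10 passed the test between lines. With no filter none of them passed (limma adjusted p from 0.0536 to 0.0895), and with quantile scaling EXOSC4 did not (0.0593). With averaged probe sets the contrast of MRPS30 went from 0.69 to 0.26 (limma adjusted p = 0.215) and that of EXOSC2 from 0.51 to 0.38 (0.114), and with _x_at and _s_at probe sets passed over EXOSC2 was at 0.25 (0.242).

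Around MYC itself, the 14 partners and antagonists tested had medians of -0.12 in Panc1 and -0.03 in BxPC3. MXD1 and MXI1, which pair with MAX and oppose MYC, were lower on the Panc1 knockout array. MXD1 read 6.59 and 5.45 (-1.14) and MXI1 9.12 and 7.81 (-1.31), and in BxPC3 they differed by -0.01 ± 0.10 and -0.40 ± 0.09. Both passed the limma test between lines (adjusted p = 0.0218 and 0.0284), although the mean over MXD1 probe sets did not (adjusted p = 0.170). They were among 3 of the 14 that passed it, all with a negative sign, where 14.0% of all genes passed. MYCL, a MYC paralog, fell in BxPC3 from 6.10 to 5.67 (-0.43 ± 0.07, limma adjusted p = 0.0388, and 0.0577 to 0.398 without any 1 array) and was dim in Panc1, at 4.63 and 3.92, below the array median on both arrays. With averaged probe sets MYCL gave -0.19 in BxPC3 (limma adjusted p = 0.315), and its call was also lost with no filter (0.0780), the expression-dependent prior (0.0564) and the replicate block (0.101). MYC targets outside the nucleolus had medians of 0.24 in Panc1 and -0.08 in BxPC3 over 23 genes. SRM, spermidine synthase, gave 0.49 and -0.27 ± 0.07. EIF4EBP1, a translation repressor, read 8.64 and 7.64 in Panc1 and differed by -0.06 ± 0.07 in BxPC3. Both were among 6 of the 23 that passed the test between lines, where 14.0% of all genes did. Of these 6, EIF4EBP1 passed with a negative sign and the others, SRM included, with a positive sign. CCND2, a D-type cyclin, was the 1 gene of that list that fell in BxPC3 (-2.67 ± 0.18, adjusted p = 0.00487), a call kept without any 1 array, and it read 5.87 and 3.94 in Panc1.

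**Figure D3:**
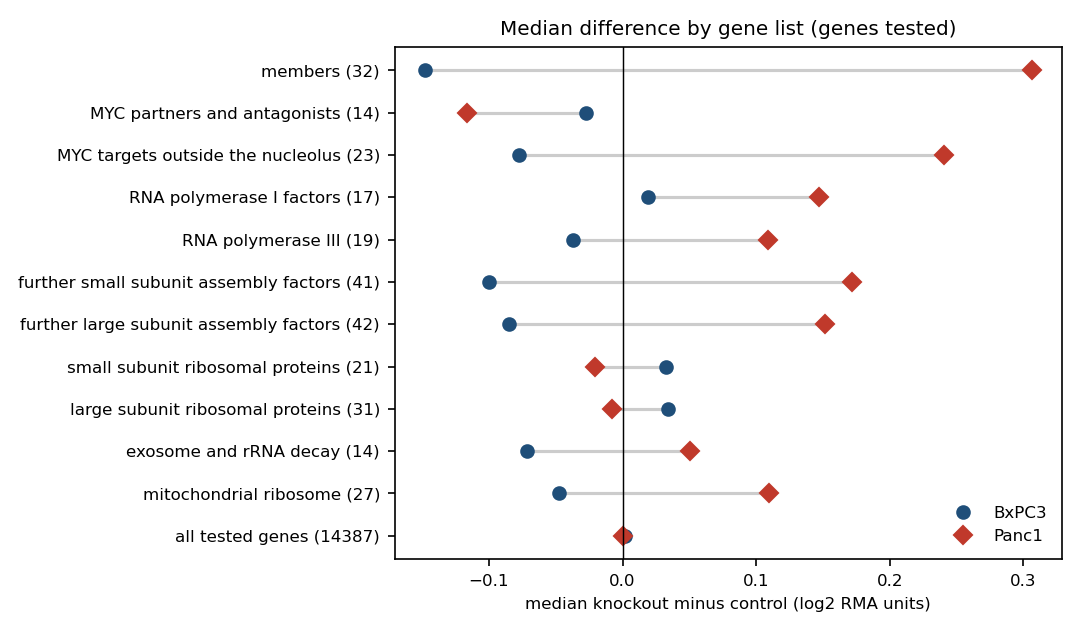
Median knockout minus control difference (log2 RMA units) over the tested genes of each list, with their number in brackets, in BxPC3 (blue circles) and Panc1 (red diamonds). The 32 ribosome-building genes, chosen for their unlike signs, lie at -0.15 and 0.31, and the 2 ribosomal protein lists lie within 0.04 of 0 in both lines.

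Differences in Panc1 also varied with signal. All tested genes were ranked by mean Panc1 level and divided into 10 bins of equal size, from bin 1 (dimmest) to bin 10. Of the 32 genes, 30 lay in bins 7 to 10 and 2 in bin 6. The median Panc1 difference of all genes was 0.14 in bin 2, -0.14 in bin 5 and 0.00 in bin 10. The medians of the ribosome-building genes were 0.28, 0.44, 0.53 and 0.12 in bins 7 to 10, where all genes had medians of -0.09, -0.05, -0.01 and 0.00. The 9 members in bin 10, FBL and NPM1 among them, thus lay nearer to 0 than the 8 in bin 9, a difference that was not tested. In BxPC3 the medians of all genes lay between -0.02 and 0.04 in every bin, and those of the members were -0.14 in bin 9 and -0.15 in bin 10.

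**Figure D4:**
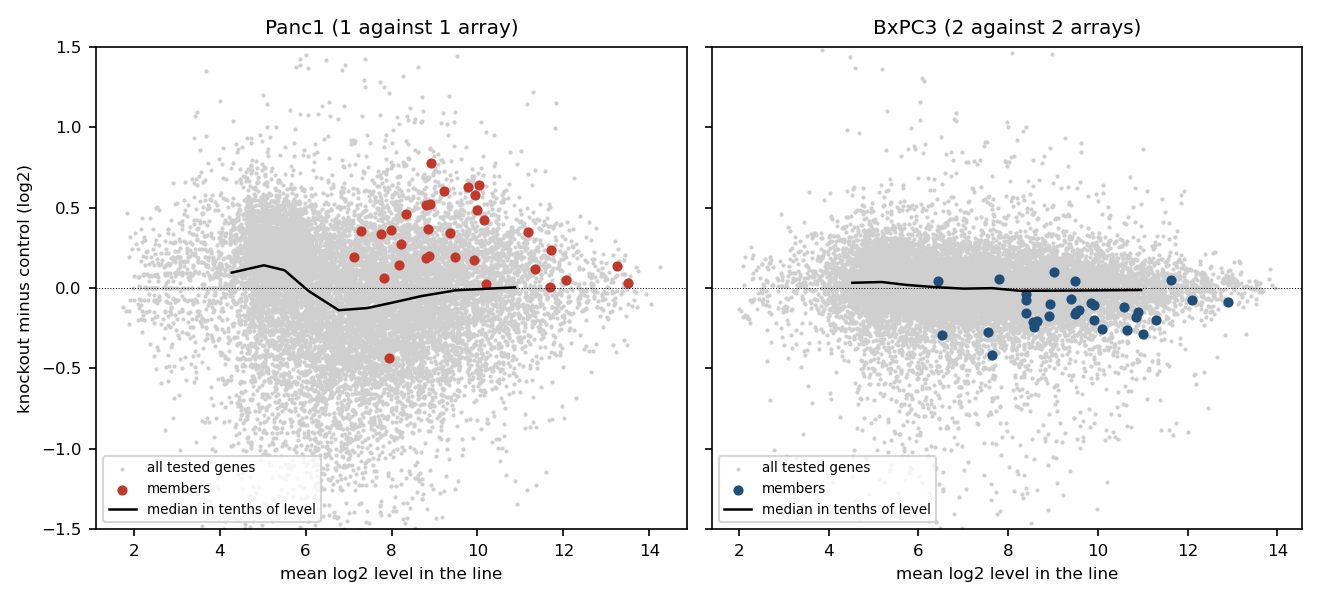
Knockout minus control difference (log2) against the mean log2 level in the line, for all tested genes (grey), the 32 ribosome-building genes (coloured) and the median of all genes in 10 bins of level (black line). The axis ends at 1.5 on either side, which leaves out 185 genes in Panc1 and 64 in BxPC3. In Panc1 most coloured points lie above the black line, IMP3 lies below it, and several of those at the right end lie close to it.

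Other probe sets gave a partial check within the same arrays. Of 34 further probe sets, over 18 of the genes, 27 exceeded the array median on at least 1 array. Of these 27, 24 had the same sign as the probe set used in Panc1 and 24 in BxPC3. Those that did not were 1 probe set each of POLR1B, TSR1 and WDR12 in Panc1, and of POLR1C, RRP12 and WDR12 in BxPC3. They share RNA and arrays with the probe sets used and are no replicates.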

How the data were processed

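Gene expression was measured on 6 Affymetrix arrays of Panc1 and BxPC3 cells, grouped by the titles in the labels. The deposited values are log2 RMA levels per probe set, made by the authors with RMA in affy, per the submitters' processing notes, with no version given in the sources used here. The Panc1 arrays shared 2895 exactly equal probe set values, BxPC3 pairs 629 to 846 and arrays of different lines 0, so levels were not compared between lines. Quantile steps in RMA remove a shift of most genes, and dim probe sets are compressed.

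Of 54613 probe sets, 41091 had 1 gene symbol in the platform annotation, 1801 several and 11721 none. Gene identifiers of 41037 matched the RefSeq table (GRCh38.p14) and 0 symbols changed. The brightest probe set over all 6 arrays stood for a gene, and genes above the array median on at least 1 array entered the tests. limma 3.58.1 in R 4.3.3 fitted 1 mean per group, with 2 residual and 3.08 prior degrees of freedom, and p-values were Benjamini-Hochberg adjusted over 14387 genes (threshold 0.05). The number of arrays limits the precision. On 10 simulated sets with 200 genes changed 2-fold, the BxPC3 test recovered 110 to 150 of them with 0 to 6 false calls.

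The members, the related lists and the tests were chosen with earlier results of these data known. Values per array are given for MYC, the 2 members of each role group with the smallest p between lines and those past a test, and for related lists the 2 genes with the smallest BxPC3 p and the 2 with the largest Panc1 difference. UTP15, IMP3, IMP4, CDH5 and CD14 were added after their values were seen. Promoters came from RefSeq and are shown for the 4 genes with the smallest p between lines among those with an entry, in a window of 250 bases. Alternatives covered scaling, probe set choice, filter, variance prior, replicate block and leaving out each BxPC3 array.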

Additional observations from a re-analysis of the deposited data

Results flagged for a closer look

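The knockout effect differed between the lines by the limma contrast of Panc1 minus BxPC3 for 9 of the 32 ribosome-building genes. In log2 units the contrast was GAR1 0.70, LYAR 0.85, WDR43 0.61, NOP14 0.57, TSR1 0.68, NOP16 0.74, RRS1 0.76, RRP1B 0.69 and NIP7 0.98, with adjusted p between 0.0198 and 0.0380. All 9 calls were lost without either BxPC3 control array. The set was chosen with its unlike signs in the 2 lines known, so the calls describe it and are no independent support.

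Among the other genes named from related lists, the contrast passed with a positive sign for SRM 0.76, TOP1 0.63, TCOF1 0.85, POLR3G 0.54, POLR3K 0.69, NOL11 0.60, PNO1 0.82, DHX37 0.83, RRP15 0.72, WDR74 0.58, EXOSC2 0.51, EXOSC4 0.73 and MRPS30 0.69. It passed with a negative sign for MXD1 -1.13, MXI1 -0.90, EIF4EBP1 -0.94, RSL24D1 -0.53 and MRPS10 -0.65. Adjusted p of these genes lay between 0.0137 and 0.0461, and none passed without either BxPC3 control array. For KDM6A the contrast was -1.88 (adjusted p = 0.0111), and with averaged probe sets it was -0.52 and did not pass (limma adjusted p = 0.0560). Panc1 had 1 array per group, so the contrast borrows its error from BxPC3.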

How the results depend on the processing

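Of 415 gene-level BxPC3 values under the alternatives, 406 kept their direction and their side of the threshold, 7 newly passed it and 2 changed sign, namely POLR1C with probe sets ending in _x_at or _s_at passed over (0.00662) and POLR1A without knockout array 2 (-0.0960 to 0.184 without 1 array). Of 351 values of the contrast between lines, 285 kept both, 38 newly passed, 26 no longer passed and 2 changed sign, both of FBL (0.16 with centred arrays and -0.0439 to 0.00799 without 1 array). Not every alternative could change a direction. The filter, prior and block settings leave a gene's difference as it was, and probe set choices do so for genes with 1 probe set. No member passed in the main BxPC3 fit, so keeping its side there means not passing again. The members past the threshold in BxPC3 numbered 0, and 6 with the variance prior following expression. Leaving out 1 array gave 0 to 1. All genes past it numbered 679, with 445 under no filter, 1317 under the expression-dependent prior and 89 to 610 without 1 array. Between lines, 9 members passed, with 19 under centred arrays, 3 under no filter, 19 under the expression-dependent prior and 0 to 15 without 1 array. All genes there numbered 2008, with 1042 under no filter, 3324 under the prior and 234 to 3402 without 1 array. The median contrast over members was 0.43, and 0.61 with centred arrays. The Panc1 median over members was 0.31, with 0.50 under centred arrays and 0.24 with _x_at and _s_at probe sets passed over. Genes at least 2-fold different in Panc1 numbered 555, with 323 for averaged probe sets and 346 for genes above the array median on all 6 arrays. The cause of these shifts was not tested. No array could be left out of Panc1.

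BxPC3 arrays share replicate numbers. Over tested genes, control 1 minus control 2 correlated with knockout 1 minus knockout 2 at -0.17. That value shows no shift shared by arrays of the same number, but it cannot settle whether their cultures were paired. With the replicate number as a block, 384 genes and 0 members passed in BxPC3, and with crossed numbers as a block, an alternative chosen after seeing the data, 455 genes and 0 members did.

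Among 36 related genes and KDM6A, 23 BxPC3 and 62 line-contrast values no longer passed, 10 and 32 newly did, and 19 and 13 changed sign. Sign changes in BxPC3 under centring were MXD1 0.0125 and RPS16 0.0140, and under quantile scaling MXD1 0.0243, POLR3K 0.00876, NOL11 0.00337 and RPS19 -0.00894. With averaged probe sets they were RPS16 0.0352 and RPS19 -0.0146, and with _x_at and _s_at probe sets passed over TCOF1 0.00551 and RPS16 0.0518. Without 1 array the ranges that crossed 0 were MXD1 -0.133 to 0.114, RPS16 -0.0227 to 0.00741, POLR3K -0.0781 to 0.0347, RPS19 -0.0271 to 0.0349, RPL27A -0.0791 to 0.192 and POLR3GL -0.191 to 0.00725. In the contrast they were RPS19 0.0197, RPS27 0.171, RPL12 0.134 and EXOSC6 0.137 under centring, EXOSC6 0.0463 under quantile scaling, EXOSC6 0.0103, RPS6 0.00186, RPS16 -0.0114 and RPS27 0.0395 with averaged probe sets, and RPS16 -0.0693 with _x_at and _s_at passed over. Without 1 array the contrast ran from -0.0330 to 0.0242 for RPS27 and from -0.121 to 0.0442 for EXOSC6.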
